A study of Rattus norvegicus with 6 samples.

Results

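The genes described here drive DNA replication and cell division, and were measured in rat ileum, where the small intestine ends, after bypass surgery. The list names 48 genes, 23 that act in S phase, when DNA is copied, and 25 that act in G2 and mitosis (G2/M), when the copied chromosomes are condensed and separated. A gene counts as measured where a row of the array table carries its symbol alone in the platform annotation, and of several such rows the brightest on average was used. By this rule 41 genes were measured of the 14506 genes in the table, 20 of S phase and 21 of G2/M. Mcm3, Mcm4, Chaf1a, Mki67, Cenpf, Ncapg and Cenpe were not analysed here.

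All 6 animals were Zucker fa/fa rats, which become obese because their leptin receptor does not work, operated on at 20 weeks of age and killed 14 days later. In 3 rats a duodenum-jejunum bypass (DJB) tied off the upper duodenum and joined it to the distal jejunum, so that food met bile and pancreatic juice further down. In the 3 sham rats the gut was cut and joined again in its normal course. RNA of whole ileum from each rat was hybridised to 1 Affymetrix rat gene array, and levels are log2 values after RMA normalisation. Changes are DJB minus sham on that scale with the standard error (SE) of a limma fit over all genes. A gene rose or fell only where its p, adjusted over all genes tested, was under 0.05.

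In the gut wall most cell division takes place in the crypts, the pockets at the base of the villi, where stem cells and their transit-amplifying daughters divide before they mature. Entry into S phase is driven by E2F transcription factors, which switch on the genes of the replication machinery. Genes of G2 and mitosis are switched on later, largely through MYBL2 and FOXM1 acting with the MuvB complex at a promoter element called the CHR, often near CCAAT boxes bound by NF-Y. Lymphocytes in Peyer's patches and in the lamina propria also divide, so RNA of whole ileum does not show which dividing cells a transcript came from. In such RNA a different number of dividing cells and a different amount of transcript per dividing cell cannot be told apart either.

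The promoters of the measured genes were read for these elements, and the S phase and G2/M genes differed in which they held. Windows from 250 bases before to 50 bases after the start of the gene, taken from RefSeq (build GRCr8), were found for 17 of the 20 S phase genes and 17 of the 21 G2/M genes. They were searched on both strands for an E2F word (TTTCCCGC, TTTCGCGC, TTTGCCGC or TTTGGCGC), for a CHR word (TTTGAA or TTCGAA) and for CCAAT. An E2F word was in 9 of the 17 S phase promoters (52.9%) and in 1 of the 17 G2/M promoters (5.88%), that of Cdk1, against 3.08% of the 12536 promoters of all genes tested. A CHR word was in 12 of the 17 G2/M promoters (70.6%) and in 3 of the 17 S phase promoters (17.6%), against 16.7% of all. CCAAT was in 14 of the G2/M promoters (82.4%) and 9 of the S phase promoters (52.9%), against 38.2%. CHR and CCAAT stood together in 11 of the G2/M promoters (64.7%), in 2 of the S phase promoters (11.8%) and in 6.93% of all. Words of different kinds overlapped in 1 S phase promoter (E2F and CCAAT) and 1 G2/M promoter (CHR and CCAAT), and a match of letters is a description and not a bound site.

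Promoters are shown for the members of lowest p in each phase that had a window, Mcm5 and Prim1 of S phase and Ccnb1 and Nusap1 of G2/M. Ccnb2 was added after its words were seen, because both G2/M words stand before its start. Each line gives the 250 bases up to the start, 5′ to 3′ on the strand of the gene, with E2F, CHR and CCAAT words in capitals.
Mcm5 (chr19:13488563-13488812, plus strand): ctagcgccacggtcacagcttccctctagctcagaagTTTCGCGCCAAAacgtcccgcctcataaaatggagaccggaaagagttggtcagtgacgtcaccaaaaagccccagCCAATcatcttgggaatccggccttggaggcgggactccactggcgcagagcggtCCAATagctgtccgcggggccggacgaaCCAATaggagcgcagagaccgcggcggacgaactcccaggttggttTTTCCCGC
Prim1 (chr7:1031212-1031461, plus strand): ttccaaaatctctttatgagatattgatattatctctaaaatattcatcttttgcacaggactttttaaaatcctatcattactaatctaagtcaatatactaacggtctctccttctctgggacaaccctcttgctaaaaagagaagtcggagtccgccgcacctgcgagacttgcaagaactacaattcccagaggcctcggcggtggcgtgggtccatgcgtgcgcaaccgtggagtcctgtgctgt
Ccnb1 (chr2:33655226-33655475, minus strand): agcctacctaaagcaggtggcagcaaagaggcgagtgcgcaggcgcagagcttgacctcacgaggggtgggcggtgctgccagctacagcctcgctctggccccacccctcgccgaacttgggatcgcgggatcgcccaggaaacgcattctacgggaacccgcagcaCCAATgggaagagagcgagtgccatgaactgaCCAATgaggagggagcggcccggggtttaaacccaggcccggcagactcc
Ccnb2 (chr8:79981659-79981908, minus strand): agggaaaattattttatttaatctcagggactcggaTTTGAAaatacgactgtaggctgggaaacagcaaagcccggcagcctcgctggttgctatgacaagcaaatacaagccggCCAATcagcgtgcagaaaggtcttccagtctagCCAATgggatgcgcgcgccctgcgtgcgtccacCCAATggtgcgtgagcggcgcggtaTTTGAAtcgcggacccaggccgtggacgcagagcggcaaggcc
Nusap1 (chr3:127057045-127057294, plus strand): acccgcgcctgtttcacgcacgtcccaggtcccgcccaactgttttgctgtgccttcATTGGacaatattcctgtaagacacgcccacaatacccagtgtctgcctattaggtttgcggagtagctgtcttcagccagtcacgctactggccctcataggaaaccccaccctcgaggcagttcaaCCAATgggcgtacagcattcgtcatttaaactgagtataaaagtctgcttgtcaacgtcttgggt
In this stretch Mcm5 holds overlapping E2F words at its far end, another at its start and 3 CCAAT, whereas Prim1 holds none of the words, with 1 CCAAT just after the start. Ccnb1 holds 2 CCAAT and no CHR word of these letters. Ccnb2 holds 3 CCAAT and 2 CHR words, the nearer beginning 43 bases before the start, and the CHR word of Nusap1 lies just after its start. In all 12 G2/M promoters with a CHR word, at least 1 such word began between 100 bases before and 50 bases after the start. The same held for 1 of the 3 S phase promoters with a CHR word. The share over the promoters of all genes tested was not computed.

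After the bypass 40 of the 41 genes lay higher than after sham surgery, by small amounts. Only Ccnb1, which encodes the mitotic cyclin B1, rose over all genes, by 1.51-fold. The background is a high one, since 61.7% of all genes tested had a positive difference. Over all genes 0.772% changed, 0.393% upward and 0.379% downward. Under either of the other scalings, a repeated quantile normalisation or centring of each array on its median, 39 of the 41 genes were higher, with E2f1 and Foxm1 lower, against 53.1% and 54.7% of all genes. The median difference was 0.24 over the S phase genes (range -0.01 to 0.62) and 0.26 over the G2/M genes (range 0.00 to 0.60), against 0.05 over all genes tested. The 3 DJB values lay wholly above the 3 sham values for 9 of 20 S phase genes and 12 of 21 G2/M genes, against 14.5% of all genes, and for none wholly below, against 6.56%. At an unadjusted limma p under 0.05, 7 S phase and 9 G2/M genes were higher, against 9.82% of all genes, and none was lower, against 4.45%. 

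The size of these differences rested in good part on DJB 3. Without it the S phase and G2/M medians were 0.15 and 0.14 (0.07 over all genes), and without DJB 2 they were 0.31 and 0.35 (also 0.07). The counts at an unadjusted p under 0.05, S phase before G2/M, were 2 and 5 without DJB 3 (10.5% of all genes), 10 and 12 without DJB 2 (9.89%) and 6 and 9 without DJB 1 (6.57%). They were 5 and 8 without sham 1 (6.75%), 6 and 7 without sham 2 (8.54%) and 3 and 6 without sham 3 (7.49%). Counts of genes without overlap, which fewer arrays make easier to reach, were 9 and 12 without DJB 3 (23.4% of all genes), 16 and 17 without DJB 2 (23.5%) and 11 and 12 without DJB 1 (16.4%). They were 10 and 14 without sham 1 (19%), 10 and 14 without sham 2 (21.7%) and 11 and 13 without sham 3 (20.2%).

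**Figure D1:**
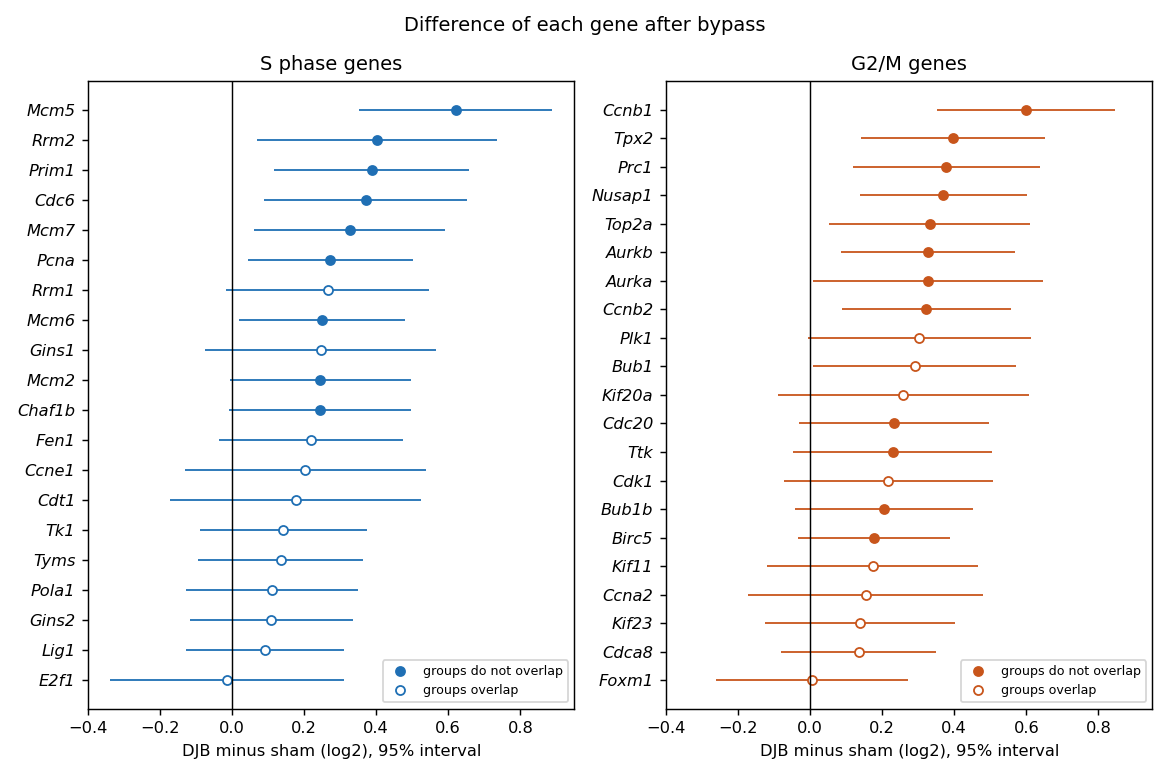
DJB minus sham difference on the log2 scale for each of the 20 S phase genes (left) and 21 G2/M genes (right), with its 95% interval from the limma fit, 3 arrays per group. Filled points mark genes whose DJB values all lay above their sham values (9 and 12), and Mcm5 and Ccnb1 lie farthest to the right at 0.62 and 0.60.

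The replicative helicase that unwinds DNA is a ring of MCM proteins. All 4 of its measured subunits were higher without overlap of the groups, against 14.5% of all genes. Mcm5 read 7.95, 8.04 and 8.09 in sham 1 to 3 and 8.67, 8.43 and 8.84 in DJB 1 to 3. The lowest DJB value thus stood clear of every sham value, yet the difference of 0.62 ± 0.12 (SE), or 1.54-fold, did not pass over all genes (limma adjusted p = 0.0585). Mcm5 passed when dim rows were left out of the test (adjusted p = 0.0259) and when eBayes was run with both an intensity trend and robust moderation (0.0130). Both settings called more genes of the whole table, 129 and 189 higher against 57 in the main fit. The adjusted p of Mcm5 lay between 0.0641 and 0.192 when single arrays were left out. Mcm7 read 8.63, 8.60 and 8.41 in sham and 8.77, 8.78 and 9.08 in DJB, a difference of 0.33 ± 0.12 that did not pass (adjusted p = 0.260). Mcm6 (0.25 ± 0.10) read 8.53, 8.60 and 8.41 in sham and 8.79, 8.64 and 8.85 in DJB. Mcm2 (0.24 ± 0.11) read 8.14, 8.13 and 8.22 in sham and 8.28, 8.33 and 8.61 in DJB. In these 3 subunits the lowest DJB value lay close above the highest sham value, and none passed.

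Of the 4 measured genes that load and complete the helicase none passed. Cdc6, the loading factor of the MCM ring, read 6.84, 6.71 and 6.78 in sham and 7.28, 6.88 and 7.28 in DJB, with a difference of 0.37 ± 0.13 (adjusted p = 0.234). DJB 2 lay just above the sham arrays while DJB 1 and DJB 3 stood well above them. Its partner Cdt1 read 7.24, 7.05 and 7.36 in sham and 7.38, 7.11 and 7.69 in DJB, so that the groups overlapped (0.18 ± 0.15). The GINS subunit genes Gins1 (0.25 ± 0.14) and Gins2 (0.11 ± 0.10), whose complex joins the active helicase, overlapped as well, and in both of them DJB 2 lay among the sham values.

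Among genes that supply the building blocks of DNA, Rrm2, the regulated subunit of ribonucleotide reductase, had the widest difference. It read 9.26, 9.41 and 9.21 in sham and 9.56, 9.49 and 10.03 in DJB, a change of 0.40 ± 0.15 (adjusted p = 0.264). DJB 3 lay 0.74 above the sham mean and DJB 2 0.19 above it. Another row of Rrm2 on the array gave a like difference, 0.46. The large subunit gene Rrm1 was at 0.26 ± 0.12 with overlapping groups, and its other, dimmer row at 0.10. The thymidylate synthase gene Tyms (0.13 ± 0.10) and the thymidine kinase gene Tk1 (0.14 ± 0.10) had overlapping groups and did not pass.

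At the replication fork, the primase subunit gene Prim1, which starts each new strand with an RNA primer, read 9.16, 8.80 and 9.06 in sham and 9.44, 9.27 and 9.48 in DJB. The groups did not overlap and the difference was 0.39 ± 0.12 (adjusted p = 0.198). Pcna, the sliding clamp that holds the polymerases, read 9.02, 8.95 and 8.84 in sham and 9.09, 9.23 and 9.31 in DJB (0.27 ± 0.10, adjusted p = 0.274). The chromatin assembly gene Chaf1b (0.24 ± 0.11) also had groups that did not overlap, whereas those of the flap nuclease gene Fen1 (0.22 ± 0.11) did. The smallest differences of this set were those of Pola1, the catalytic subunit of the polymerase that extends the primer, and of Lig1, the ligase that seals the fragments. Pola1 read 7.72, 7.55 and 7.66 in sham and 7.61, 7.78 and 7.88 in DJB (0.11 ± 0.11). Lig1 read 8.23, 8.18 and 8.36 in sham and 8.31, 8.30 and 8.44 in DJB (0.09 ± 0.10), and in both genes the groups overlapped.

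The regulators that open S phase did not stand out. E2f1, the transcription factor gene, read 5.80, 6.02 and 6.13 in sham and 6.25, 5.86 and 5.79 in DJB, a difference of -0.01 ± 0.14. It was the only S phase gene with a negative difference and the only 1 of the 41 genes dimmer than the median row (6.11), and its sign turned without sham 2, sham 3, DJB 2 or DJB 3. Its interval of -0.34 to 0.31 leaves room for a change in either direction. Ccne1, cyclin E1, was at 0.20 ± 0.15 with DJB 2 inside the range of sham.

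Among the mitotic cyclins, Ccnb1 read 8.61, 8.77 and 8.57 in sham and 9.22, 9.13 and 9.40 in DJB. The means were 8.65 ± 0.11 (SD, n = 3) and 9.25 ± 0.14 (SD, n = 3), and the rise was 0.60 ± 0.11 (SE; limma adjusted p = 0.0497). The groups were well apart on every array, but the adjusted p is close to the threshold, and leaving out any single array ended the call (adjusted p between 0.0973 and 0.190). In those fits 0.2%, 0.152% and 0.159% of all genes rose without sham 1, 2 and 3, and 0.262%, 0.193% and 0.255% without DJB 1, 2 and 3. It also ended with another quantile normalisation (0.0623), with arrays centred on their medians (0.0573), with the replicate number as a block (0.174) and with all 29214 rows tested (0.0970). Ccnb2, cyclin B2, read 8.46, 8.38 and 8.50 in sham and 8.79, 8.62 and 8.90 in DJB, a difference of 0.32 ± 0.10 (adjusted p = 0.214) that a further row of the gene put at 0.35. Ccna2, cyclin A2, read 8.20, 8.04 and 8.03 in sham and 8.03, 8.12 and 8.57 in DJB. Only DJB 3 lay above its sham range, and the difference of 0.15 ± 0.14 was -0.01 without that array. Cdk1, the kinase that these cyclins activate, was at 0.22 ± 0.13, with DJB 2 within the sham range.

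**Figure D2:**
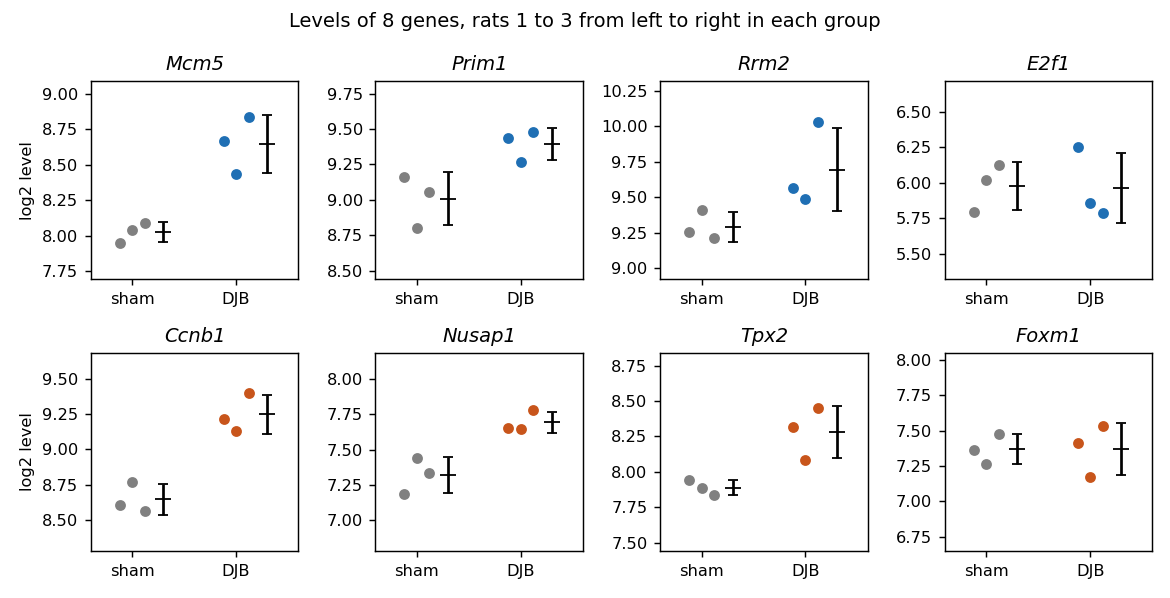
Log2 levels of 4 S phase genes (upper row) and 4 G2/M genes (lower row) in the 3 sham and 3 DJB rats, with the mean and SD of each group beside the points. All panels span the same 1.4 log2 units; Mcm5, Prim1, Rrm2, Ccnb1, Nusap1 and Tpx2 have groups that do not overlap, and E2f1 and Foxm1 have groups that do.

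The kinases of mitosis were higher without passing. Aurkb, the kinase of the chromosomal passenger complex, read 8.12, 8.20 and 8.04 in sham and 8.43, 8.31 and 8.60 in DJB (0.33 ± 0.11, adjusted p = 0.219). Aurka, the spindle pole kinase, was at 0.33 ± 0.14, also without overlap. Plk1, which acts from mitotic entry to cytokinesis, read 8.43, 8.37 and 8.35 in sham and 8.66, 8.42 and 8.98 in DJB. Its range over the DJB arrays (0.55) was far wider than over the sham arrays (0.08), DJB 2 lay among the sham values, and the difference was 0.30 ± 0.14. The passenger genes Birc5, which encodes survivin (0.18 ± 0.09), and Cdca8, which encodes borealin (0.13 ± 0.10), had smaller differences.

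The spindle checkpoint, which delays the separation of sister chromatids until all are attached, was measured through 4 genes with differences between 0.21 and 0.29. Bub1 read 7.88, 7.79 and 7.63 in sham and 8.14, 7.82 and 8.20 in DJB (0.29 ± 0.12), with DJB 2 within the sham range. Bub1b (0.21 ± 0.11), Ttk (0.23 ± 0.12) and Cdc20 (0.23 ± 0.12), the last of which activates the ligase that ends the checkpoint, had groups that did not overlap.

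Spindle and midzone genes held 3 of the 4 G2/M genes of lowest p. Tpx2, which activates Aurora A and nucleates spindle fibres, read 7.94, 7.89 and 7.83 in sham and 8.32, 8.09 and 8.45 in DJB (0.40 ± 0.11, adjusted p = 0.172). Nusap1, which binds and bundles microtubules, read 7.19, 7.44 and 7.34 in sham and 7.65, 7.65 and 7.78 in DJB (0.37 ± 0.10, adjusted p = 0.166). Prc1, which bundles the fibres of the midzone, read 8.26, 8.40 and 8.13 in sham and 8.68, 8.47 and 8.77 in DJB (0.38 ± 0.12, adjusted p = 0.191). All of them stood above sham on each DJB array, and in Nusap1 the DJB arrays lay closer together (range 0.13) than the sham arrays (0.25). The motor genes had smaller differences and overlapping groups, with Kif20a at 0.26 ± 0.15, Kif11 at 0.17 ± 0.13 and Kif23 at 0.14 ± 0.12. Kif23 read 7.81, 7.74 and 7.59 in sham and 7.74, 7.76 and 8.05 in DJB, so that only DJB 3 exceeded sham.

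Top2a, the topoisomerase that disentangles sister chromosomes, read 9.24, 9.24 and 9.11 in sham and 9.39, 9.40 and 9.78 in DJB (0.33 ± 0.12, adjusted p = 0.276). Foxm1, the transcription factor gene, read 7.36, 7.26 and 7.47 in sham and 7.41, 7.17 and 7.53 in DJB. It was the flattest of the G2/M genes at 0.00 ± 0.12 (interval -0.26 to 0.27), and its sign turned negative under either of the other scalings. Foxm1 and E2f1 had the smallest differences of the 41 genes, both with a wide interval.

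The 3 DJB rats did not share the pattern evenly. Set against each gene's sham mean, the S phase genes had a median of 0.23 on DJB 1, 0.11 on DJB 2 and 0.39 on DJB 3. The G2/M genes had medians of 0.20, 0.09 and 0.46. DJB 1 was also high as an array, with a median of 0.12 over all genes tested against 0.01 on each of DJB 2 and DJB 3. DJB 3 was above the highest sham array in 19 S phase genes and all 21 G2/M genes, against 30.8% of all genes. For DJB 1 the counts were 17 and 17 (51.4% of all genes) and for DJB 2 they were 11 and 12 (29.5%).

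DJB 3 held the highest DJB value for 37 of the 41 genes, against 23.2% of all genes. After another quantile normalisation it did so for 40, against 31.7% of all genes, and after median centring also for 40, against 31.8%. DJB 2 held the lowest for 31 of the 41 genes, against 41.1% of all genes, but this rested on the scaling: it was 22 (30.4% of all genes) after another quantile normalisation and 20 (29.0%) after median centring, when DJB 1 was lowest for 18 and 20. After centring, the G2/M medians of DJB 1 and DJB 2 were both 0.10, and that of DJB 3 was 0.46. The sham rats were close to each other, with S phase means of 7.62, 7.61 and 7.64 and G2/M means of 7.70, 7.73 and 7.66. The range over the DJB arrays was wider than over the sham arrays for 17 of 20 S phase genes and 19 of 21 G2/M genes, against 56.6% of all genes.

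**Figure D3:**
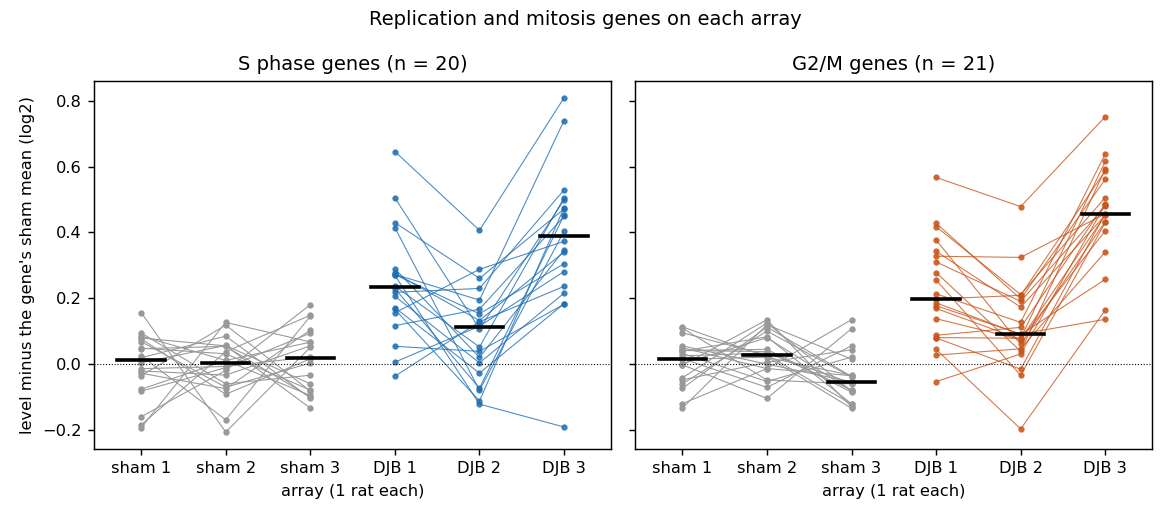
Level of each gene minus its own sham mean (log2) on each of the 6 arrays, S phase genes on the left and G2/M genes on the right; each point is 1 gene, lines join the points of a gene within a group, and black bars are medians over genes. The sham medians lie near 0, and the DJB medians are 0.23, 0.11 and 0.39 for S phase genes and 0.20, 0.09 and 0.46 for G2/M genes.

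The phases were set side by side through their mean levels. The mean over the genes of each phase was higher after DJB by 0.24 for S phase and 0.26 for G2/M. With each phase mean first set to 0 over the sham arrays, G2/M minus S phase was 0.01, 0.04 and -0.05 in sham 1 to 3 and -0.02, 0.02 and 0.08 in DJB 1 to 3, values that overlapped and were not tested. DJB 3 was the only array where the G2/M mean centred in this way exceeded the S phase mean by more than the highest sham value.

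Genes of the same processes outside the 48 were read from further lists, and their counts stand against 61.7% of all genes with a positive difference, 14.5% wholly higher and 6.56% wholly lower. Of 40 other replication genes 35 had a positive difference, 14 were higher and 2 lower without overlap and none passed, with a median of 0.15. The nearest were Orc1, the large subunit of the origin recognition complex (0.45 ± 0.13, adjusted p = 0.168, from a dim row), and Rpa3, a subunit of the single-strand binding complex, which was lower (-0.34 ± 0.10, adjusted p = 0.167). Of 41 other mitosis genes 35 had a positive difference, 15 were higher and 2 lower without overlap and none passed, with a median of 0.17. The kinetochore gene Cenpi was nearest (0.50 ± 0.11, adjusted p = 0.0984, also from a dim row), followed by the spindle gene Dlgap5 (0.39 ± 0.11, adjusted p = 0.155).

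Genes that govern the G1 phase, before DNA is copied, had 19 of 23 positive differences, against 61.7% of all genes. Of the 23, 12 were higher without overlap, against 14.5% of all genes, and none passed. Their median was 0.20, against 0.05 over all genes tested. Cdk4, the kinase that opens the way to S phase, read 9.98, 9.90 and 10.04 in sham and 10.46, 10.26 and 10.42 in DJB (0.41 ± 0.10, adjusted p = 0.125). Its partner Ccnd2, cyclin D2, read 10.71, 10.70 and 10.80 in sham and 11.16, 11.02 and 11.04 in DJB (0.33 ± 0.09, adjusted p = 0.168). Both lay above sham on each DJB array, and in both DJB 1 and not DJB 3 was the highest. Both passed in the fit with trend and robust moderation (adjusted p = 0.0291 and 0.0438). That fit called 189 genes higher, against 57 in the main fit. Inhibitors and p53 targets were mixed, with 8 of 13 positive (6 of 13 under either of the other scalings), none past the threshold and a median of 0.02. Among them the inhibitor genes Cdkn2c (0.45 ± 0.11, adjusted p = 0.124) and Cdkn1a (0.32 ± 0.09, adjusted p = 0.175) were higher without overlap.

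Markers of the cells that divide, or that surround them, were read from the same fit. Their counts of positive differences stand, as above, against 61.7% of all genes. Crypt stem cell markers had 3 of 12 positive differences and none past the threshold, with a median of -0.03. The stem cell receptor gene Lgr5 read 6.89, 6.53 and 7.02 in sham and 6.40, 6.14 and 6.01 in DJB (-0.63 ± 0.15, adjusted p = 0.122). It passed only in the fit with trend and robust moderation (adjusted p = 0.0483), which called 124 genes lower, against 55 in the main fit. Prom1, which marks stem and transit-amplifying cells, was higher (0.38 ± 0.10, adjusted p = 0.155).

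B cell and germinal centre markers varied widely from rat to rat, with a median range of 0.61 over the sham and 0.65 over the DJB arrays, 3 of 10 positive and none past the threshold. Their summed level, as log2, ran from 9.09 to 9.83 in sham and from 8.91 to 9.78 in DJB, with 7 of 10 under the median of all rows. Cr2, a complement receptor of follicles, read 6.86, 7.35 and 5.60 in sham and 6.92, 4.05 and 5.60 in DJB (-1.08 ± 0.66), and the B cell gene Ms4a1 was at -0.73 ± 0.51. The mean of the B cell markers stood 0.26, -0.71 and -0.25 from its sham mean on DJB 1 to 3. The part of B cells in the pattern of the replication and mitosis genes over the DJB arrays was not tested.

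T cell markers were also uneven over the DJB arrays. Their mean stood 0.19, -0.13 and 0.46 from the sham mean on DJB 1 to 3. DJB 3 was highest for 9 of the 12 markers, against 23.2% of all genes. Their summed level ran from 11.49 to 11.89 in sham and from 11.48 to 11.99 in DJB. A positive difference was found for 11 of 12, and for 10 of 12 under either of the other scalings (53.1% and 54.7% of all genes). None passed, with Cd3d at 0.49 ± 0.18 and Trat1 at 0.29 ± 0.13. Macrophage markers stood 0.21, 0.06 and 0.30 from their sham mean, with DJB 3 highest for 10 of 12, against the same 23.2%. Their summed levels ran from 11.52 to 11.60 in sham and from 11.59 to 11.88 in DJB. A positive difference was found for 10 of 12 macrophage markers, against 61.7% of all genes. After another quantile normalisation it was 9 (53.1% of all genes) and after median centring 8 (54.7%). The macrophage differences ran from -0.01 to 0.54 with a median of 0.18, and none passed the threshold. Those of lowest p were Cd14 at 0.54 ± 0.12 and Cd163 at 0.45 ± 0.14. The part of T cells and macrophages in the pattern of the 41 genes over the DJB arrays was not tested.

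Epithelium was measured through 11 markers, of which the ileal bile acid transporter gene Slc10a2 rose (1.73 ± 0.22, adjusted p = 0.0106; 0.0511 in the fit with trend and robust moderation) and Fabp6, the ileal bile acid binding protein, did not pass (0.30 ± 0.10, adjusted p = 0.230). Both are defining markers of ileum, and their levels lay between 9.90 and 13.97 on the 6 arrays. The summed level of the epithelial list, which includes Slc10a2 and Fabp6, ran from 15.71 to 15.91 in sham and from 15.94 to 16.00 in DJB. Of its other markers, Epcam was at 0.21, Krt8 and Krt20 at 0.11, Cdh1 at 0.10, Cdx2 at 0.03 and Cldn7 at 0.00. Vil1 was at -0.01, Fabp2 at -0.13 and Alpi at -0.14, and none of these other markers passed. Smooth muscle markers had 7 of 10 positive differences, against 61.7% of all genes, and none past the threshold. Under either of the other scalings 6 of 10 were positive (53.1% and 54.7% of all genes). Acta2 was at 0.25 ± 0.10 and Actg2 at 0.32 ± 0.15, whereas Smtn was at -0.21, Mylk at -0.05 and Lmod1 at -0.04. The summed levels of the smooth muscle list ran from 13.38 to 13.83 in sham and from 13.69 to 13.93 in DJB. The smooth muscle mean stood 0.21, 0.22 and -0.03 from its sham mean on DJB 1 to 3.

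**Figure D4:**
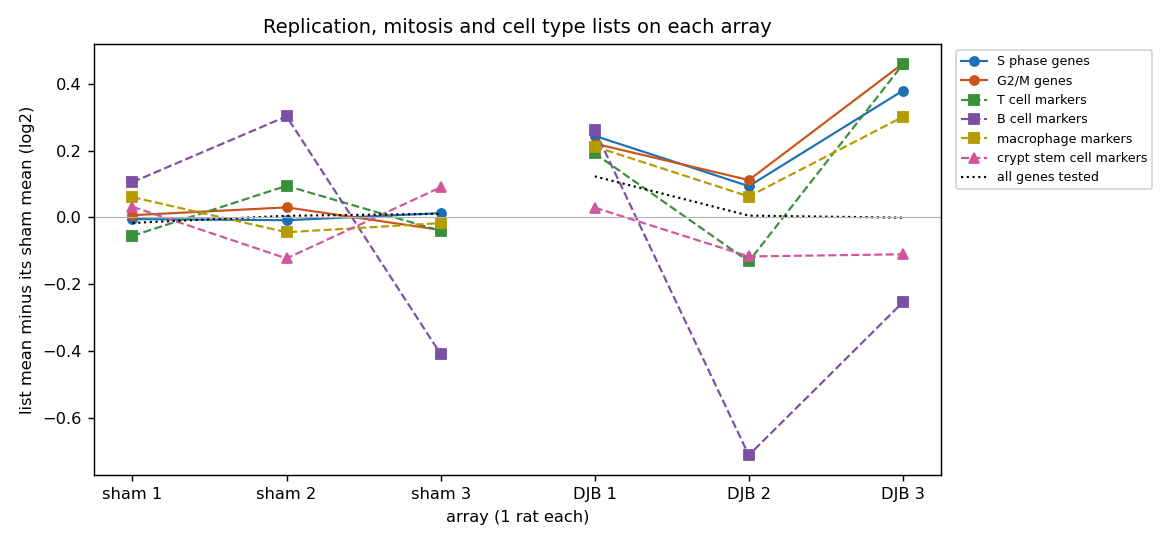
Mean over the genes of each list minus that list's sham mean (log2) on each array, for the S phase genes, the G2/M genes, 4 lists of cell type markers and all genes tested; lines only join the points of a list within a group. On DJB 3 the S phase, G2/M and T cell lists stand at 0.38, 0.46 and 0.46, while the B cell and crypt stem cell lists lie below their sham means.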

How the data were processed

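The authors' deposited table holds log2 expression values of 29214 rows on 6 arrays, computed by RMA, a tool that the submitters' processing notes name without a version. RMA includes a quantile step over the arrays, but the deposited array medians still ran from 6.08 to 6.19, so the scaling was also varied. The number of arrays limits the precision. Batches and scan dates were not analysed here, and no genome build for the probes is named: it is not given in the sources.

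Rows with exactly 1 symbol in the platform annotation (15310) gave 14506 genes. Of 15310 rows, 15279 were found by gene ID in a RefSeq table of GRCr8, with 0 symbols changed. DJB and sham were compared with limma 3.58.1 in R 4.3.3 (lmFit, eBayes, two-sided), with Benjamini-Hochberg adjustment over all genes and no covariate. The script was tested on simulated data. Figures were drawn with matplotlib 3.10.9. Promoters came from RefSeq.

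The labels number separate rats from 1 to 3 in each group. The deviations of same-numbered rats from their group means correlated at 0.01, -0.12 and -0.15 across genes, so the numbers were not taken as pairs.

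The members, the lists and the tests were chosen with earlier results of these data known. Genes with values on every array are, per phase, the 8 of lowest and the 3 of highest p, those with a negative difference and the 2 with the widest DJB range. From each other list the 2 of lowest p and all called were named, many of them by their difference only. For the epithelial list all other measured markers were named as well, and for the smooth muscle list those with a negative difference. Alternatives were the replicate block, another quantile normalisation, median centring, leaving out dim rows, a trend with robust eBayes, the mean of a gene's rows, testing all rows, and leaving out each array.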

Additional observations from a re-analysis of the deposited data

How the results depend on the processing

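Ccnb1 was the only called gene of the 41 under the settings of the report, and it was close to the threshold, so the count of G2/M genes called fell from 1 to 0 with the replicate block, with quantile normalisation repeated, with arrays centred on their medians, with all rows tested, and in the range from 0 to 0 without single arrays. The S phase count of 0 (7 at an unadjusted limma p under 0.05) was 1, Mcm5, with dim rows left out and with eBayes with trend and robust, and stayed at 0 without any 1 array. Over all genes, the 57 higher and 55 lower calls were 27 and 23 with the replicate block, 129 and 96 with dim rows left out and 189 and 124 with trend and robust, and ran from 22 to 38 higher and from 10 to 70 lower without single arrays. The cause of these shifts was not tested. The S phase median difference ran from 0.15 (without DJB 3) to 0.31 (without DJB 2) and the G2/M median from 0.14 to 0.35 (the same arrays), and S phase genes without overlap ran from 9 to 16 and G2/M genes from 12 to 17, where fewer arrays make overlap rarer by construction (16.4% to 23.5% of all genes). The difference turned sign for Foxm1 with quantile normalisation repeated (-0.019), with centring (-0.027), and without sham 2 (-0.049), DJB 1 (-0.017) or DJB 3 (-0.077), its highest value being 0.104 without DJB 2, for E2f1 without sham 2 (0.0039), sham 3 (0.059), DJB 2 (0.039) or DJB 3 (0.074), its lowest value being -0.157 without DJB 1, and for Ccna2 without DJB 3 (-0.012), against 0.257 without DJB 1. Of 532 combinations of a gene and a setting, 510 kept direction and side of the threshold. Most of these are genes without a call to lose, and Ccnb1, the only called gene, lost its call in 10 combinations. The replicate block, with numbers that do not pair the rats, changed no other call of the 41 genes.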
